A study of Danio rerio with 20 samples.

Results

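The 4 granulin genes grn1, grn2, grna and grnb were followed in cardiomyocyte preparations of adult zebrafish hearts, untouched or regenerating after resection of the ventricular apex. They are the listed granulin symbols present among the 14781 gene lines of the expression matrix. All 4 passed the filter on low values and were tested among 10914 genes. The family was chosen by measured values: grn1 had stood out in wild-type hearts 5 days after injury, at 108 ± 9.34 scaled CPM against 5.65 ± 3.11 in untouched wild-type hearts (SD, n = 2 libraries each). Those values are therefore a description. No p is given for that comparison in any member, nor for any grn1 difference that uses those 4 libraries.

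The kit mutant, kita(w34b2);kitb(sa15356), carries mutations in both zebrafish copies of the gene of the receptor tyrosine kinase Kit, and was set against wild type. Mutant hearts were untouched or taken at 2, 5, 7 or 14 days post injury (dpi), and wild-type hearts at the same stages. That gave 10 groups of 2 libraries, each library from 8 pooled ventricles of fish aged 4 to 6 months, with about 20% of the ventricle resected at the apex in the injured groups. The study asked how Kit-deficient cardiomyocytes differ in their response to injury. The labels do not say whether libraries of a group came from separate preparations, so p-values measure the spread between these libraries only.

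Library depth ran from 14.6 to 31.7 M reads. The muscle genes myl7, cmlc1 and vmhc, which mark cardiomyocytes, were high in every library (7888 to 27248, 3280 to 11944 and 483 to 1615 scaled CPM). Summed over all genes of a list present in the matrix, tested or not, cardiomyocyte markers ran from 34899 to 84874 scaled CPM across the 20 libraries. The epicardium and fibroblast list ran from 8927 to 34557, the endothelium and endocardium list from 3503 to 7612 and the erythroid list from 1514 to 7988. The thrombocyte list ran from 95.4 to 1797 and the lymphocyte list from 9.43 to 144. kita had 6 to 29 reads and kitb 0 to 8 reads per library, too few to check the genotype labels. Near-identical library pairs occurred in 3 groups, all mutant (untouched, 2 dpi, 7 dpi), with a mean chi-square per gene of 1.95 to 3.73 against 13.9 to 46.6 in the other 7 groups, where read sampling alone gives about 1. Granulin calls that rest on these pairs, and most counts for the macrophage, neutrophil, lysosome and progranulin partner lists, are also given with each pair averaged to 1 library. Counts of the other lists and values of single list genes are not, so these counts, SE and p were not checked in that way. Averaging also alters the spread shared by all groups. Calls between groups without such a pair can therefore change though their log2 differences do not. The 2 dpi mutant pair came from lane 7 and all others from lane 8, where mutant libraries reused sample indices of wild-type ones. That reuse is read here as separate sequencing runs, which is an inference, so genotype and a possible run cannot be told apart. Nor can stage and lane be told apart where the 2 dpi mutants are compared with other mutants. The same holds for lane in every genotype difference at 2 dpi and in the response difference at 2 dpi.

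Progranulin is a secreted glycoprotein made of repeated cysteine-rich granulin modules. It reaches lysosomes through the sorting receptor sortilin or in company with prosaposin, and lysosomal proteases cut it into single granulins. In mammals it is made in quantity by macrophages and other myeloid cells, it dampens inflammation, and its loss disturbs lysosomes and causes neurodegeneration. Zebrafish grna and grnb encode long progranulins like the mammalian protein, and grn1 and grn2 encode short proteins of few granulin modules.

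By RefSeq (assembly GRCz12tu, used for names and neighbours only), grn1 is grna.1 (gene ID 553977) and grn2 is grna.2 (gene ID 336575). Both lie on chromosome 19 and overlap the long noncoding gene grnas. The gene grna (ID 791524) lies on chromosome 3 and overlaps the noncoding gene grnaas and ifi35, and grnb (ID 335453) lies on chromosome 24 with no overlapping gene. Whether the counting used strand is not given in the sources used here. At most 6 reads of grnas and 1 read of grnaas were counted in any library. Since grn1 and grn2 are close copies, the division of reads between them is uncertain, and results for grn2 are not independent of those for grn1.

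All levels below are scaled CPM (deposited CPM divided by a library factor), which compare a gene between libraries but not genes with each other, since they are not per length. Differences are log2 ± SE of scaled CPM + 1, from limma, and a gene is said to have risen or fallen when its p, adjusted over all 10914 genes, was under 0.05. In bulk RNA, fewer cells of a type and less RNA per cell cannot be told apart.

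The short granulin gene grn1 was highest in mutant hearts that had not been injured. In untouched mutants it had 157 and 162 scaled CPM, and at 2 dpi the mutant pair had 105 and 103. At 5 dpi the mutant libraries had 24.2 and 106, at 7 dpi 53.9 and 50.2, and at 14 dpi 7.43 and 13.1. The untouched mutant pair lay above all other libraries, the 14 dpi pair lay below all other mutant libraries, and the 5 dpi pair differed 4.39-fold between its libraries. Wild-type grn1 ran the other way at the start, with 7.85 and 3.45 scaled CPM in untouched hearts and 137 and 54.0 at 2 dpi. Its wild-type libraries had 102 and 115 at 5 dpi, 144 and 31.6 at 7 dpi, and 50.5 and 97.0 at 14 dpi. Every injured wild-type library was above both untouched ones, and the 4 injured wild-type stages overlapped in the order of their means.

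The neighbouring gene grn2 had a similar course at fewer reads (8 to 1318 per library). Mutants had 21.0 and 20.3 scaled CPM untouched, 7.99 and 8.91 at 2 dpi, 1.77 and 10.6 at 5 dpi, 2.49 and 2.93 at 7 dpi, and 0.721 and 0.939 at 14 dpi. Wild type had 0.458 and 0.412 untouched, 9.87 and 3.84 at 2 dpi, 58.0 and 8.90 at 5 dpi, 9.93 and 3.33 at 7 dpi, and 5.99 and 19.6 at 14 dpi. Untouched mutants were again high and untouched wild-type hearts low. The highest library of all was replicate 1 of wild-type 5 dpi, 6.52-fold above its partner.

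The long progranulin gene grna peaked at 2 dpi in mutants. Mutant libraries had 132 and 135 scaled CPM untouched, 235 and 220 at 2 dpi, 23.5 and 36.4 at 5 dpi, 86.3 and 88.5 at 7 dpi, and 39.7 and 42.3 at 14 dpi. Wild-type libraries had 21.9 and 22.5 untouched, 79.1 and 28.8 at 2 dpi, 95.0 and 88.6 at 5 dpi, 150 and 96.9 at 7 dpi, and 58.1 and 65.3 at 14 dpi. Within mutants no neighbouring stages in the order of the means (2 dpi, untouched, 7, 14 and 5 dpi) overlapped. In wild type the highest stage was 7 dpi, and only 14 and 2 dpi overlapped among neighbours in that order.

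The other long progranulin gene, grnb, varied least, over a 2.64-fold range across the 20 libraries against 47.0-fold for grn1, 141-fold for grn2 and 10.7-fold for grna. Mutants had 17.3 and 17.3 scaled CPM untouched, 29.4 and 28.5 at 2 dpi, 30.8 and 28.1 at 5 dpi, 18.3 and 21.2 at 7 dpi, and 17.7 and 20.0 at 14 dpi. Wild type had 11.6 and 17.1 untouched, 28.0 and 29.8 at 2 dpi, 23.6 and 19.9 at 5 dpi, 22.5 and 20.4 at 7 dpi, and 15.6 and 16.0 at 14 dpi. Its 3 highest groups were mutants at 5 and 2 dpi and wild type at 2 dpi, which overlapped in the order of their means.

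**Figure D1:**
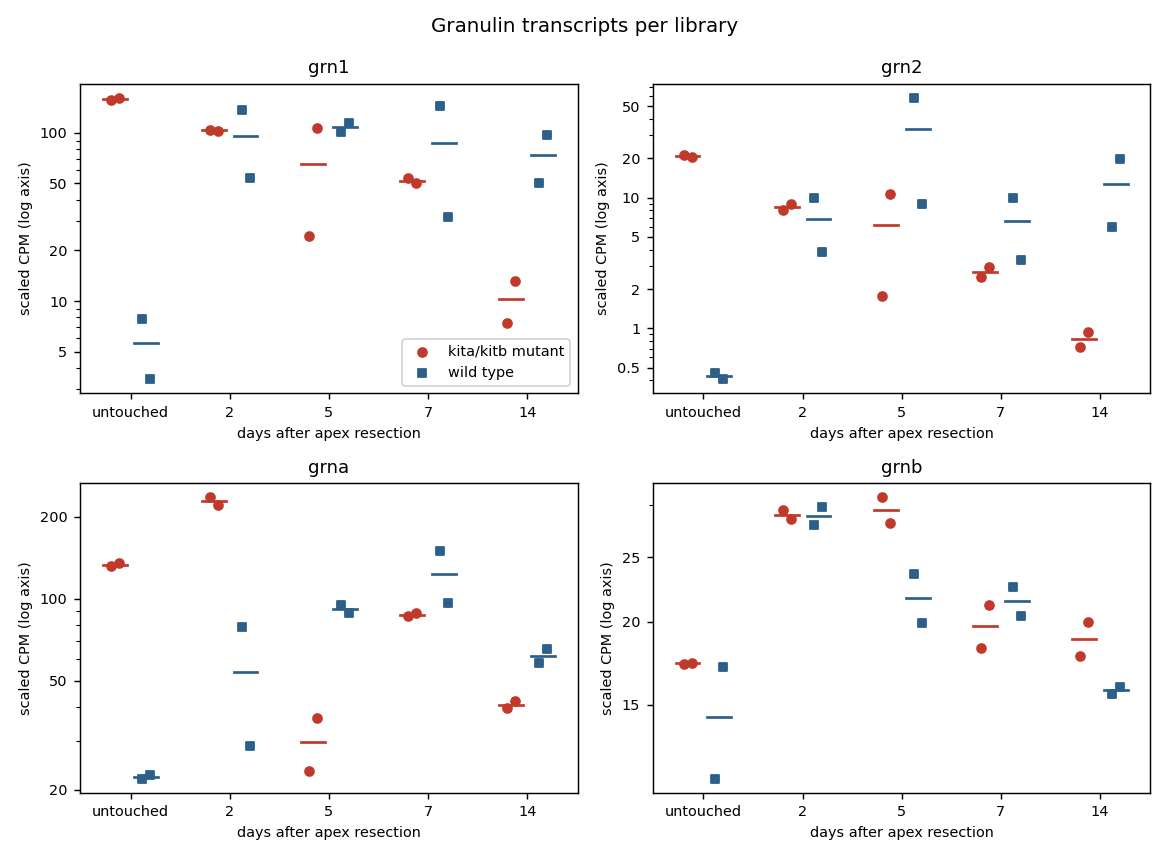
Scaled CPM (log axis) of grn1, grn2, grna and grnb in each of the 20 libraries against days after apex resection, with kita/kitb mutants as red circles, wild type as blue squares and a line at each group mean (n = 2). Untouched mutants were high and untouched wild-type hearts low for grn1 (159 against 5.65), grn2 (20.7 against 0.435) and grna (133 against 22.2), while grnb stayed between 11.6 and 30.8.

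Before injury, grn2 and grna were higher in mutants than in wild type. For grn2 the means were 20.7 ± 0.536 in untouched mutants and 0.435 ± 0.0330 in untouched wild-type hearts (SD, n = 2 each), a log2 difference of 3.92 ± 0.72 (adjusted p = 0.000447). Each untouched wild-type library had 8 grn2 reads, near the floor, and that SD does not measure counting error. The + 1 inside the log2 shrinks differences from so low a level (the means differed 47.5-fold). For grna the means were 133 ± 2.02 in mutants and 22.2 ± 0.421 in wild type (log2 2.53 ± 0.31, adjusted p = 9.32e-06). The untested difference of grn1 was log2 4.68 ± 0.64, with 159 ± 3.50 in mutants and 5.65 ± 3.11 in wild type. grnb, at 17.3 ± 0.0358 in mutants and 14.4 ± 3.89 in wild type, did not pass (log2 0.28 ± 0.14, adjusted p = 0.14). So 2 of 3 tested members were higher in untouched mutants, where 40.1% of all tested genes were called in either direction and 18.9% were higher. Both calls held with the near-identical pairs averaged, where 21.2% of all genes were called and 10.1% were higher. The p of grn2 is not free of the choice of the family, as given above. Nor is that of grna, whose levels went with those of grn1 (r = 0.73 over the 20 libraries) and which uses the same untouched wild-type libraries.

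Neutrophil transcripts moved with that difference. All 12 tested genes of the neutrophil list were higher in untouched mutants (12 with the pairs averaged), with a median log2 difference of 3.98 against -0.03 over all genes. The summed list stood at 2073 and 2101 scaled CPM in untouched mutants and at 441 and 497 in untouched wild-type hearts. The list genes with the highest levels, srgn (268 to 538 over the libraries) and ncf1 (18.5 to 669), weigh most in these sums. The myeloperoxidase gene mpx averaged 63.1 scaled CPM in untouched mutants and 2.15 in untouched wild type, and the lysozyme gene lyz averaged 118 in mutants and 5.08 in wild type. npsn, another neutrophil marker, was at or near 0 in every library (at most 0.176). Of the macrophage list 10 of 20 tested genes were higher and 2 lower (8 and 1 with the pairs averaged). Other lists differed as well. Of the erythroid list 6 of 12 genes were lower in mutants and 0 higher. Its sums were 2554 and 2587 scaled CPM in untouched mutants against 7836 and 7988 in untouched wild type. Of the epicardium and fibroblast list 15 of 27 genes were lower and 6 higher. The counts of these other lists were not repeated with the pairs averaged. Of all tested genes 40.1% were called in untouched hearts and 18.9% were higher (21.2% and 10.1% with the pairs averaged). The part of any of these lists in the granulin difference was not tested.

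At 2 dpi the genotypes differed in grna alone among the 4 members. It averaged 228 ± 10.7 in mutants and 53.9 ± 35.6 in wild type (log2 2.23 ± 0.31, adjusted p = 1.42e-05). The other members did not pass, with log2 differences of 0.27 ± 0.64 for grn1 (adjusted p = 0.74), 0.38 ± 0.72 for grn2 (adjusted p = 0.672) and 0.00 ± 0.14 for grnb (adjusted p = 0.979). This 1 of 4 called compares with 57.7% of all tested genes called, 27.3% higher. The grna call held with the pairs averaged, where 41.6% of all genes were called, and without each of the 4 libraries in turn. At this stage macrophage transcripts separated the genotypes, with 18 of 20 list genes higher in mutants and 0 lower (16 and 0 with the pairs averaged) and sums of 2833 and 2891 scaled CPM in mutants against 1128 and 598 in wild type. The perforin-like macrophage gene mpeg1.1 averaged 65.1 scaled CPM in mutants and 22.7 in wild type. Of the 12 neutrophil genes 6 were higher in mutants and 0 lower (5 and 0 with the pairs averaged), with a median log2 difference of 0.76. Their sums were 1285 and 1318 scaled CPM in mutants against 616 and 458 in wild type, while mpx was low in both, at 3.98 in mutants and 5.01 in wild type. The lymphocyte list differed too, with 3 of 7 genes higher in mutants and 0 lower. Its sums were 144 and 136 scaled CPM in mutants against 61.1 and 9.43 in wild type. The gene ccr9a weighs most in these sums, at 4.88 to 122.5 over the 20 libraries. Of the cardiomyocyte list 7 of 15 genes were lower in mutants and 0 higher. The lymphocyte and cardiomyocyte counts were not repeated with the pairs averaged, where 21.7% of all genes were lower. The part of any of these lists in the grna difference was not tested. Mutant libraries of this stage came from lane 7 and wild-type ones from lane 8, so genotype and lane cannot be told apart here.

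By 5 dpi grn2 and grna were lower in mutants than in wild type, and grnb was higher. grna averaged 30.0 ± 9.16 in mutants and 91.8 ± 4.56 in wild type (log2 -1.62 ± 0.31, adjusted p = 0.000708). grn2 averaged 6.19 ± 6.25 in mutants and 33.5 ± 34.7 in wild type (log2 -2.09 ± 0.72, adjusted p = 0.0314), a call lost with the pairs averaged (adjusted p = 0.0699), without wild-type 5 dpi replicate 1 (log2 -0.80, adjusted p = 0.45) and without mutant 5 dpi replicate 1 (log2 -1.06, adjusted p = 0.361). The genotypes overlapped in grn2, with mutant 5 dpi replicate 2 at 10.6 scaled CPM above wild-type 5 dpi replicate 2 at 8.90. The p of grn2 and that of grna are not free of the choice of the family, which rests on these wild-type libraries. grnb averaged 29.4 ± 1.87 in mutants and 21.7 ± 2.62 in wild type (log2 0.42 ± 0.14, adjusted p = 0.0294). Its call was lost with the pairs averaged (adjusted p = 0.065), on CPM as deposited (log2 0.23, adjusted p = 0.278) and without mutant 5 dpi replicate 1 (adjusted p = 0.161), mutant 5 dpi replicate 2 (adjusted p = 0.0501) or wild-type 5 dpi replicate 2 (adjusted p = 0.207). The untested grn1 difference was log2 -1.07 ± 0.64, and it ran from -2.11 to -0.022 when 1 library was left out. All 3 tested members were thus called, 1 higher and 2 lower, with 38.6% of all tested genes called, 19.1% higher and 19.5% lower. Neither 5 dpi group was a near-identical pair, so averaging the pairs altered only the shared spread here. With the pairs averaged 0 were higher and 1 lower, with 30.2% of all genes called, and without mutant 5 dpi replicate 1 the share of all genes fell to 23.6%, or 2574 genes, and leaving out wild-type 5 dpi replicate 1 left 2627 genes. Macrophage list genes were 7 of 20 lower in mutants and 0 higher (3 lower without mutant 5 dpi replicate 1), and of 12 neutrophil genes 1 was higher and 3 lower.

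At 7 dpi no member passed between the genotypes by limma (0 of 4 at an unadjusted p under 0.05, and 0 by edgeR), with log2 differences of -0.37 ± 0.64 for grn1, -0.90 ± 0.72 for grn2, -0.46 ± 0.31 for grna and -0.12 ± 0.14 for grnb (adjusted p from 0.288 to 0.708), where 27.2% of all tested genes were called. That share was 7.75% with the pairs averaged and 14.3% to 20.1% when 1 of the 4 libraries was left out, and the log2 difference of grn1 then ran from -1.45 to 0.70. Macrophage genes were 8 of 20 lower and 0 higher at 7 dpi (3 lower with the pairs averaged, and 4 to 9 when 1 library was left out).

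At 14 dpi the short granulin genes were lower in mutants. grn1 averaged 10.3 ± 4.04 in mutants and 73.8 ± 32.8 in wild type (log2 -2.70 ± 0.64, adjusted p = 0.00477). grn2 averaged 0.830 ± 0.154 in mutants and 12.8 ± 9.64 in wild type (log2 -2.72 ± 0.72, adjusted p = 0.00957). grna (log2 -0.58 ± 0.31, adjusted p = 0.164) and grnb (log2 0.24 ± 0.14, adjusted p = 0.219) did not pass. So 2 of 4 members were called, where 31% of all tested genes were called and 14.8% were lower. Neither 14 dpi group was a near-identical pair, so averaging the pairs altered only the shared spread here. Without wild-type 14 dpi replicate 1 the share of all genes was 19%. Macrophage genes were 6 of 20 lower and 1 higher (2 to 7 lower when 1 library was left out), and 2 of 12 neutrophil genes were lower. Both granulin calls held with the pairs averaged, and both were lost without wild-type 14 dpi replicate 2, to log2 -2.24 (adjusted p = 0.0539) for grn1 and -1.94 (adjusted p = 0.116) for grn2.

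**Figure D2:**
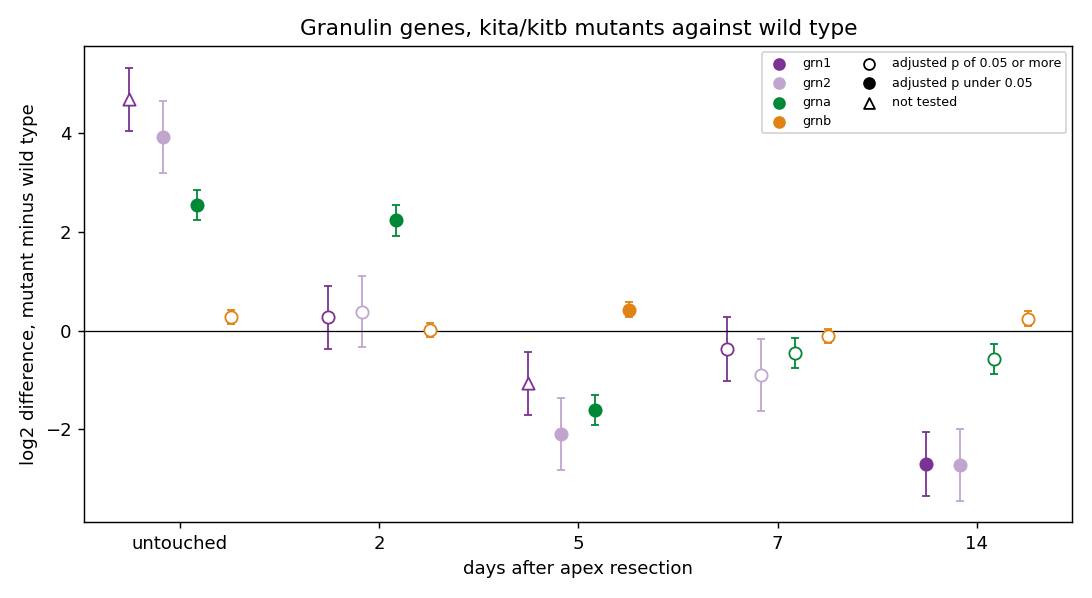
Log2 difference (mutant minus wild type) of each granulin gene with its SE from limma against days after apex resection, with filled circles for an adjusted p under 0.05, open circles for 0.05 or more and triangles for differences not tested. In untouched hearts grn1, grn2 and grna lay at 4.68, 3.92 and 2.53, at 14 dpi grn1 and grn2 lay at -2.70 and -2.72, and grnb stayed between -0.12 and 0.42.

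Within mutants, the granulin genes other than grnb ended the series below the untouched level. At 14 dpi grn1 fell to 10.3 ± 4.04 scaled CPM, against 159 ± 3.50 in untouched mutants (log2 -3.88 ± 0.64, adjusted p = 0.000218). grn2 fell to 0.830 ± 0.154, against 20.7 ± 0.536 untouched (log2 -3.57 ± 0.72, adjusted p = 0.00107), and grna to 41.0 ± 1.81, against 133 ± 2.02 untouched (log2 -1.68 ± 0.31, adjusted p = 0.000456). grnb did not pass (log2 0.11 ± 0.14, adjusted p = 0.56). These 3 falls held with the pairs averaged and without each of the 4 libraries in turn. At that stage 39.4% of all tested genes were called and 18.2% were lower (19.8% and 8.8% with the pairs averaged). The neutrophil list moved with them, 12 of 12 lower (11 with the pairs averaged), with sums of 477 and 534 at 14 dpi against 2073 and 2101 in untouched mutants, and its part was not tested.

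The earlier mutant stages were less uniform. At 5 dpi grna fell to 30.0 ± 9.16 against 133 ± 2.02 in untouched mutants (log2 -2.15 ± 0.31, adjusted p = 2.61e-05), and this call held with the pairs averaged. grn1 (log2 -1.62 ± 0.64, adjusted p = 0.0443) and grn2 (log2 -1.93 ± 0.72, adjusted p = 0.0347) fell as well, but with the pairs averaged their adjusted p were 0.179 and 0.156, and without mutant 5 dpi replicate 1, the lower library, the differences were -0.58 and -0.90. Leaving out either untouched mutant library also ended both calls. grnb rose (29.4 ± 1.87 at 5 dpi against 17.3 ± 0.0358 untouched, log2 0.73 ± 0.14, adjusted p = 0.00054). So 1 member was higher and 3 lower at 5 dpi, with 51.3% of all tested genes called, 26% higher and 25.3% lower. Averaging the pairs left 1 higher and 1 lower, with 16.1% of all genes higher and 17.3% lower. Neutrophil genes moved with the falls, 11 of 12 lower than in untouched mutants (11 with the pairs averaged, median log2 -2.85), with sums of 638 and 791 scaled CPM at 5 dpi against 2101 and 2073 untouched. Macrophage genes were 9 of 20 higher and 3 lower. The part of these cells was not tested.

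At 2 dpi grnb rose in mutants (29.0 ± 0.654 at 2 dpi against 17.3 ± 0.0358 untouched, log2 0.71 ± 0.14, adjusted p = 0.000591). grna rose to 228 ± 10.7 at 2 dpi, against 133 ± 2.02 untouched (log2 0.77 ± 0.31, adjusted p = 0.0445), a call that averaging the pairs ended (adjusted p = 0.269), as did leaving out any 1 of the 4 libraries. grn1 (log2 -0.61 ± 0.64, adjusted p = 0.446) and grn2 (log2 -1.20 ± 0.72, adjusted p = 0.179) did not pass. Thus 2 of 4 members were higher, where 52.4% of all tested genes were called and 27.5% were higher. Averaging the pairs left 1, where 15.1% of all genes were higher. Macrophage genes moved with the rise of grna, 18 of 20 higher (12 with the pairs averaged), with sums of 2833 and 2891 scaled CPM at 2 dpi against 1090 and 1081 untouched. Neutrophil genes were 8 of 12 lower and 1 higher (7 and 1 with the pairs averaged), and the part of either list was not tested. The 2 dpi mutant libraries were the only ones from lane 7, so these changes cannot be told apart from lane.

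At 7 dpi only grn2 passed of the 4 members in mutants (2.71 ± 0.309 at 7 dpi against 20.7 ± 0.536 untouched, log2 -2.55 ± 0.72, adjusted p = 0.0255), where 14.6% of all tested genes were called and 5.74% were lower (2.68% and 0.55% with the pairs averaged, and 6.88% to 7.49% called when 1 library was left out). With the pairs averaged no member passed by limma (1 of 4 at an unadjusted p under 0.05; edgeR without averaging called 1), and the adjusted p of grn2 was 0.418. Leaving out any 1 of the 4 libraries ended the grn2 call too. Neutrophil genes were 9 of 12 lower than untouched (4 with the pairs averaged), and macrophage genes 9 of 20 higher and 1 lower (1 and 0 with the pairs averaged). Other lists changed in mutants too, at 2, 5, 7 and 14 dpi against untouched. Epicardium and fibroblast genes were 24, 24, 23 and 21 of 27 higher and 0, 2, 1 and 2 lower. Endothelium and endocardium genes were 13, 12, 5 and 2 of 20 lower and 2, 2, 0 and 3 higher. Cardiomyocyte genes were 11, 2, 1 and 5 of 15 lower and 1, 1, 0 and 2 higher. Of all tested genes 52.4%, 51.3%, 14.6% and 39.4% were called. The part of these lists was not tested.

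In wild type, grn2, grna and grnb were tested at 2, 7 and 14 dpi against untouched hearts, with grn2 and grna p-values not free of the choice of the family. The untouched grn2 level rests on 8 reads per library. All 3 tested genes were higher at 2 dpi, where 51.6% of all tested genes were called and 26.4% were higher. At 2 dpi grn2 rose to 6.85 ± 4.26, against 0.435 ± 0.0330 untouched (log2 2.34 ± 0.72, adjusted p = 0.0129), grna to 53.9 ± 35.6, against 22.2 ± 0.421 untouched (log2 1.07 ± 0.31, adjusted p = 0.00776) and grnb to 28.9 ± 1.27, against 14.4 ± 3.89 untouched (log2 0.98 ± 0.14, adjusted p = 3.73e-05). When replicate 1 of wild-type 2 dpi, the library with more granulin transcripts, was left out, grna (log2 0.36, adjusted p = 0.182) and grn2 (log2 1.75, adjusted p = 0.102) no longer passed, and without wild-type untouched replicate 2 the adjusted p of grn2 was 0.0534. Macrophage sums were 1128 and 598 scaled CPM in the 2 dpi libraries, against 713 and 668 in untouched wild type, with 13 of 20 genes higher and 4 lower. Neutrophil sums were 616 and 458 at 2 dpi against 497 and 441 untouched, with 2 of 12 genes higher and 1 lower. That count of higher genes ran from 1 to 8 when 1 library was left out.

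All 3 tested members were higher in wild type at 7 dpi as well, where 34.8% of all tested genes were called and 17.5% were higher. grna rose to 123 ± 37.2 (log2 2.39 ± 0.31, adjusted p = 1.84e-05) and kept its call without each library in turn. grn2 reached 6.63 ± 4.67 (log2 2.26 ± 0.72, adjusted p = 0.0225), a call that averaging the pairs ended (adjusted p = 0.0558), as did leaving out wild-type untouched replicate 1 or 2 or 7 dpi replicate 1, the last of which left log2 1.60. grnb reached 21.5 ± 1.51 (log2 0.57 ± 0.14, adjusted p = 0.00564) and was lost without untouched replicate 1 (log2 0.31, adjusted p = 0.115) and without 7 dpi replicate 1 (adjusted p = 0.0557). At 14 dpi grna (61.7 ± 5.08, log2 1.43 ± 0.31, adjusted p = 0.00282) and grn2 (12.8 ± 9.64, log2 3.07 ± 0.72, adjusted p = 0.00563) were higher and grnb was not called (15.8 ± 0.301, log2 0.15 ± 0.14, adjusted p = 0.493), where 24.9% of all tested genes were called and 13.2% were higher. Without wild-type 14 dpi replicate 2 that share fell to 14.1%, and with the pairs averaged to 16.9%. The grn2 call at 14 dpi was lost without wild-type 14 dpi replicate 2 (log2 2.28, adjusted p = 0.0892). At 14 dpi 15 of 20 macrophage genes were higher than untouched (14 with the pairs averaged), with sums of 1413 and 1745 scaled CPM. Neutrophil genes were 10 of 12 higher at 7 dpi and 6 of 12 at 14 dpi (8 and 1 with the pairs averaged), with sums of 914 and 885 at 7 dpi and 631 and 727 at 14 dpi. The 14 dpi count was 1 to 3 when 1 library was left out. Other lists changed in wild type too, at 2, 5, 7 and 14 dpi against untouched. Epicardium and fibroblast genes were 22, 23, 24 and 22 of 27 higher and 2, 0, 0 and 0 lower. Endothelium and endocardium genes were 17, 12, 13 and 10 of 20 lower and 1, 0, 1 and 0 higher. Cardiomyocyte genes were 13, 11, 12 and 2 of 15 lower and 1, 1, 0 and 2 higher. Of all tested genes 51.6%, 32.8%, 34.8% and 24.9% were called. The part of any of these cells in the wild-type rises was not tested.

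The untested wild-type differences from untouched hearts were large for grn1 at each stage, log2 3.80 at 2 dpi, 4.12 at 5 dpi, 3.45 at 7 dpi and 3.50 at 14 dpi (SE 0.64 each). When 1 library was left out the 7 dpi value ran from 2.38 to 4.53. At 5 dpi grn2 stood log2 4.07 ± 0.72 above untouched, grna 2.00 ± 0.31 and grnb 0.58 ± 0.14, also untested. The grn2 value ran from 2.79, without wild-type 5 dpi replicate 1, to 5.36, without replicate 2. At that stage 32.8% of all tested genes were called (24.5% with the pairs averaged, and 19.7% when wild-type 5 dpi replicate 1 was left out). All 20 tested macrophage genes were higher at 5 and at 7 dpi in wild type (19 and 20 with the pairs averaged), with summed levels of 1747 and 1852 at 5 dpi and 2621 and 2090 at 7 dpi. Neutrophil genes were 9 of 12 higher and 1 lower at 5 dpi (3 higher without wild-type 5 dpi replicate 1), with sums of 725 and 671.

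The difference of the responses, the change from untouched in mutants minus that in wild type, was below 0 for grn2 at 2 dpi (log2 -3.53 ± 1.02, adjusted p = 0.0117), 7 dpi (-4.81 ± 1.02, adjusted p = 0.00382) and 14 dpi (-6.63 ± 1.02, adjusted p = 0.000142). For grna it was below 0 at 7 dpi (-2.99 ± 0.43, adjusted p = 0.000207) and 14 dpi (-3.11 ± 0.43, adjusted p = 5.78e-05), and it did not pass at 2 dpi (-0.31 ± 0.43, adjusted p = 0.603). grnb did not pass at 2, 7 or 14 dpi (-0.27, -0.39 and -0.03, each ± 0.20, adjusted p from 0.204 to 0.918). The untested values of grn1 were -4.41, -5.74, -5.05 and -7.38 at 2, 5, 7 and 14 dpi (SE 0.91 each). With the pairs averaged the grn2 calls at 2 dpi (adjusted p = 0.0954) and 7 dpi (adjusted p = 0.0792) were lost. The members called were 1 of 3 at 2 dpi, 2 of 3 at 7 dpi and 2 of 3 at 14 dpi, where 40.9%, 18.8% and 33.2% of all tested genes were called and 20.3%, 9.57% and 15.7% were lower. With the pairs averaged the shares called were 19.1%, 3.84% and 19.8%. At 5 dpi, where no member was tested, the share of all genes was 34.9%. These differences contain the untouched levels of both genotypes, which were far apart. For grn2 in wild type that level rests on 8 reads per library. The p-values of these differences for grn2 and grna are not free of the choice of the family. Neutrophil genes moved with them, 9, 12 and 12 of 12 below 0 at 2, 7 and 14 dpi (7, 8 and 12 with the pairs averaged), with medians of -2.51, -3.42 and -4.12 against 0.00, 0.03 and 0.05 over all genes. Macrophage genes were 10 of 20 above 0 at 2 dpi (6 with the pairs averaged, and 7 to 19 when 1 library was left out). At 7 and at 14 dpi 13 of 20 were below 0 (5 and 7 with the pairs averaged, and 7 to 14 and 7 to 12 when 1 library was left out). The part of these cells was not tested.

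The reads of grn2 stood in a fairly narrow proportion to those of grn1 in 19 of the 20 libraries, at 4.62 to 20.2 grn2 reads per 100 grn1 reads with a median of 7.75. Replicate 1 of wild-type 5 dpi had 57.1, while its partner had 7.75. Its grn1 level (102 scaled CPM, against 115 in the partner) did not stand apart, so the high ratio came with a high grn2 level. The proportion depends on gene lengths and on how reads of the 2 copies were assigned, so it is no ratio of transcripts.

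**Figure D3:**
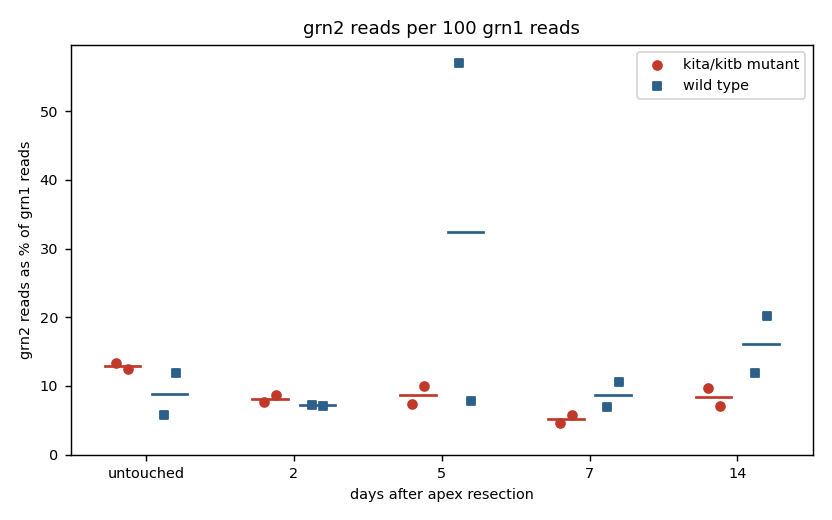
Reads of grn2 as a percentage of grn1 reads in each library against days after apex resection, with mutants as red circles, wild type as blue squares and a line at each group mean (n = 2). One wild-type 5 dpi library lay at 57.1%, and the other 19 lay between 4.62% and 20.2%.

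Over the 20 libraries, log2 levels of grn1 and grn2 had a Pearson r of 0.87, those of grn1 and grna 0.73 and those of grn2 and grna 0.62, while grnb had 0.21 to 0.38 with the others. Libraries of the same group are not independent, and the near-identical pairs least of all, so these values are a description. The 5 genes most like grn1 were rac2, a leukocyte GTPase gene (r = 0.92), cyba, a subunit of the phagocyte NADPH oxidase (0.92), lcp1, the leukocyte actin bundler L-plastin (0.91), lta4h, leukotriene A4 hydrolase (0.90), and fcer1gl, an Fc receptor chain (0.90). Those most like grn2 were lcp1 (0.86), cyba (0.80), rac2 (0.79), parvg (0.77) and gpr183a (0.77). For grna they were the adaptor gene samsn1a (0.95), pkn1b, a protein kinase (0.95), cyth4b, a cytohesin (0.95), the chemokine gene ccl34a.4 (0.94) and the cholesterol exporter gene abca1b (0.94). For grnb they included pdia3, a protein disulfide isomerase of the endoplasmic reticulum (0.91), os9, a lectin of that compartment (0.90), krt8, a keratin (0.89), and ppib, a cyclophilin of the endoplasmic reticulum (0.89). All were ranked among 7366 genes. Of the summed lists, the lymphocyte list had the highest r with grna (0.819), above the neutrophil (0.788), macrophage (0.769) and lysosome (0.765) lists. The gene ccr9a (4.88 to 122.5 scaled CPM) weighs most in the lymphocyte sum. For grn1 the highest were the lysosome (0.73), progranulin partner (0.724, described below) and neutrophil (0.666) lists. For grn2 they were the neutrophil (0.584) and lysosome (0.548) lists. For grnb they were the progranulin partner (0.795) and epicardium and fibroblast (0.733) lists, with 0.07 for neutrophils. Most weight in these sums lies, in that order, with anxa2a (1236 to 5521) and fn1b (1534.5 to 11334).

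Progranulin works in the lysosome, and lysosomal genes were more often higher in untouched mutants than lower. Of 60 tested genes of the lysosome list, 37 were higher and 2 lower (23 and 2 with the pairs averaged), with a median log2 difference of 0.46 against -0.03 over all genes. Of all tested genes 18.9% were higher (10.1% with the pairs averaged). The cholesterol exporter gene npc1 averaged 183 in mutants and 81.5 scaled CPM in wild type (log2 1.16 ± 0.10, adjusted p = 4.33e-07). The tetraspanin gene cd63 averaged 822 in mutants and 381 in wild type (log2 1.11 ± 0.11). The transcription factor gene tfec averaged 55.8 in mutants and 5.69 in wild type (log2 3.09 ± 0.33), and laptm4b, a lysosomal membrane protein gene, was lower (36.8 in mutants and 69.9 in wild type). Within mutants at 14 dpi, 4 lysosome genes were higher and 26 lower than untouched (1 and 22 with the pairs averaged, 1 or 2 higher when 1 library was left out), with a median of -0.29, among them cd63 (log2 -1.02 ± 0.11), tfec (-2.95 ± 0.33) and the proton pump gene atp6v1aa (-1.23 ± 0.14). Of all tested genes 39.4% were called in mutants at 14 dpi against untouched and 18.2% were lower (19.8% and 8.8% with the pairs averaged). Neutrophil transcripts moved the same way in both comparisons, as given above, and their part was not tested. Earlier in mutants, 33 lysosome genes were higher and 6 lower than untouched at 2 dpi (24 and 2 with the pairs averaged). The balance was 20 and 16 at 5 dpi (15 and 15 averaged), and 5 and 10 at 7 dpi (0 and 0 averaged). Of all tested genes 52.4%, 51.3% and 14.6% were called at these stages (29.2%, 33.4% and 2.68% averaged). The 2 dpi mutant pair came from lane 7, and the part of leukocytes was not tested.

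At 2 dpi lysosome genes were again mostly higher in mutants where they differed from wild type, 31 of 60 higher and 4 lower (25 and 2 with the pairs averaged), with a median log2 difference of 0.38 against -0.04 over all genes. Of all tested genes 27.3% were higher (19.9% with the pairs averaged). Macrophage genes moved the same way, as given above, and their part was not tested. The macrophage and lysosome lists shared 1 tested gene. tfeb, which encodes a transcription factor that drives lysosome genes in mammals, averaged 70.0 ± 1.57 in mutants and 12.0 ± 2.55 in wild type (log2 2.46 ± 0.18, adjusted p = 4.23e-08). ctsd, the gene of cathepsin D, a protease that cuts progranulin in mammals, averaged 465 ± 11.2 in mutants and 174 ± 46.3 in wild type (log2 1.44 ± 0.12, adjusted p = 1.53e-07). The membrane protein genes lamp2 (log2 1.19 ± 0.10) and scarb2 (log2 1.44 ± 0.12) were higher too. At 5 dpi 16 lysosome genes were higher in mutants and 9 lower (11 and 5 with the pairs averaged). The balance was 10 and 19 at 7 dpi (1 and 8 averaged), and 9 and 19 at 14 dpi (7 and 15 averaged). The medians were 0.01, -0.16 and -0.17, against -0.01, -0.02 and 0.01 over all genes. Of all tested genes 38.6%, 27.2% and 31% were called at these stages. The part of leukocytes was not tested. In wild type more lysosome genes were higher than lower after injury, 31 and 7 of 60 at 2 dpi, 29 and 3 at 5 dpi, 34 and 2 at 7 dpi, and 16 and 3 at 14 dpi, and the rest did not pass. Of all tested genes 51.6%, 32.8%, 34.8% and 24.9% were called in wild type at 2, 5, 7 and 14 dpi. The shares higher were 26.4% at 2 dpi, 17.5% at 7 dpi and 13.2% at 14 dpi. The median log2 differences of the lysosome list were 0.47, 0.41, 0.45 and 0.26, against 0.00, -0.03, -0.01 and -0.01 over all genes. At 14 dpi, averaging the pairs left 11 higher, and leaving out wild-type 14 dpi replicate 2 left 7. Macrophage genes were higher at 5, 7 and 14 dpi too, as given above, and their part was not tested. The gene of the GM2 activator, gm2a, stood at 35.8 at 7 dpi against 9.19 scaled CPM in untouched wild type (log2 1.85 ± 0.13).

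**Figure D4:**
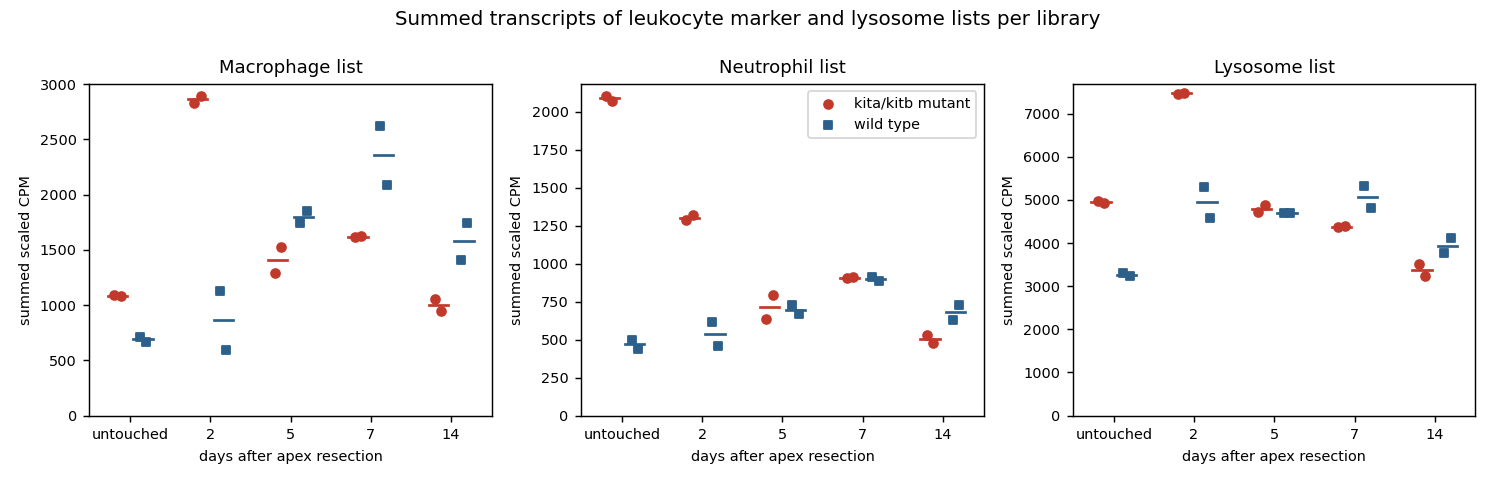
Summed scaled CPM of the macrophage, neutrophil and lysosome lists in each library against days after apex resection, with mutants as red circles, wild type as blue squares and a line at each group mean (n = 2). The neutrophil sum was highest in untouched mutants (2073 and 2101), and the macrophage sum (2833 and 2891) and the lysosome sum (7451 and 7482) were highest in mutants at 2 dpi. Only the 2 dpi mutant pair came from lane 7.

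A list of progranulin partners (receptors, carriers, proteases and regulators) held 22 tested genes, 8 of them also on the lysosome list and 1 on the neutrophil list. In untouched hearts 40.1% of all tested genes were called between the genotypes and 18.9% were higher in mutants. Of the 22 list genes, 9 were higher in untouched mutants and 1 lower than in wild type (6 and 1 with the pairs averaged). They included the TNF receptor genes tnfrsf1b (19.9 ± 1.91 in mutants and 6.87 ± 0.245 in wild type, log2 1.41 ± 0.16, adjusted p = 4.67e-06) and tnfrsf1a (86.9 ± 5.70 in mutants and 52.4 ± 1.32 in wild type, log2 0.72 ± 0.09), whose products bind progranulin in mammals by some reports. The annexin gene anxa2a (log2 1.63 ± 0.14) and the metalloprotease gene mmp9 (log2 4.84 ± 0.44), the one shared with the neutrophil list, were higher too. At 2 dpi 57.7% of all tested genes were called and 27.3% were higher in mutants. Of the list 12 were higher and 1 lower in mutants (10 and 0 with the pairs averaged), with tnfrsf1b at 25.5 ± 0.859 in mutants and 5.40 ± 0.738 in wild type (log2 2.05 ± 0.16). At 14 dpi 4 were higher and 5 lower (1 to 5 and 2 to 7 when 1 library was left out). Among them psap, the gene of prosaposin, averaged 245 ± 3.83 in mutants and 410 ± 17.4 in wild type (log2 -0.74 ± 0.12, adjusted p = 0.000197). Of all tested genes 31% were called at 14 dpi and 14.8% were lower.

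The sortilin genes and tmem106ba are named after their values were seen. sort1b was higher in mutants at 2 dpi (19.8 ± 0.127 in mutants and 13.7 ± 0.0653 in wild type, log2 0.50 ± 0.15, adjusted p = 0.0108). It was lower in mutants at 5 dpi (14.0 ± 1.12 in mutants and 25.4 ± 0.565 in wild type, log2 -0.82 ± 0.15, adjusted p = 0.000661) and at 14 dpi (11.7 ± 3.26 in mutants and 15.8 ± 1.40 in wild type, log2 -0.43 ± 0.15, adjusted p = 0.0433), and did not pass at 7 dpi (-0.21 ± 0.15, adjusted p = 0.331). sort1a was lower in mutants at 2 dpi (8.10 ± 0.159 in mutants and 12.8 ± 3.74 in wild type, log2 -0.58 ± 0.18, adjusted p = 0.0105). In untouched hearts neither passed (sort1a 0.14 ± 0.18, adjusted p = 0.571, sort1b -0.15 ± 0.15, adjusted p = 0.453). tmem106ba, whose mammalian counterpart modifies disease of progranulin loss, was higher in mutants in untouched hearts (84.4 ± 1.07 in mutants and 48.3 ± 2.32 in wild type, log2 0.79 ± 0.11, adjusted p = 2.5e-05) and at 5 dpi (109 ± 0.0887 in mutants and 62.8 ± 4.04 in wild type, log2 0.79 ± 0.11, adjusted p = 4.83e-05). It was higher at 2 dpi (log2 0.64 ± 0.11, adjusted p = 9.78e-05) and 7 dpi (0.37 ± 0.11, adjusted p = 0.018) as well, and did not pass at 14 dpi (0.19 ± 0.11, adjusted p = 0.19).

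**Figure D5:**
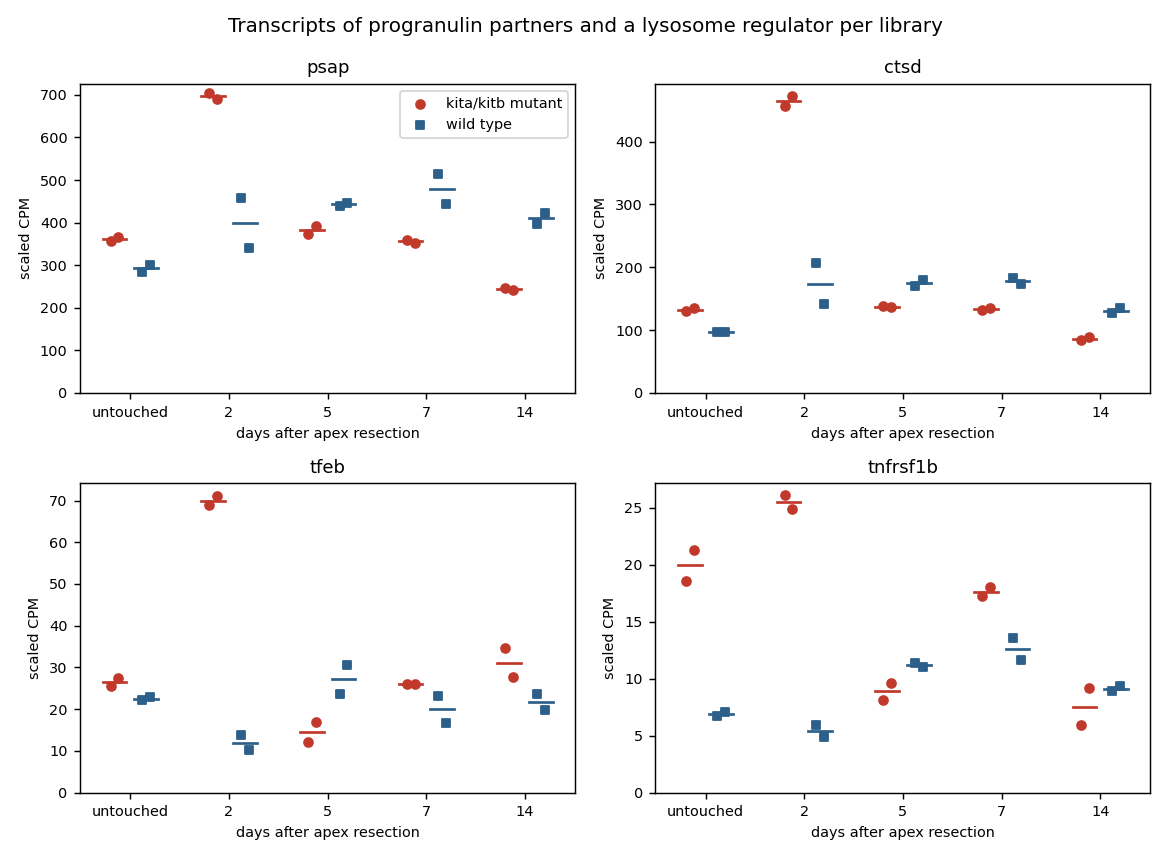
Scaled CPM of psap, ctsd, tfeb and tnfrsf1b, 4 genes picked after their values were seen, in each library against days after apex resection, with mutants as red circles, wild type as blue squares and a line at each group mean (n = 2). All 4 were highest in mutants at 2 dpi, where tfeb averaged 70.0 against 12.0 in wild type, and psap was lower in mutants at 14 dpi (245 against 410). Only the 2 dpi mutant pair came from lane 7.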

How the data were processed

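RNA of cardiomyocyte preparations was sequenced as mRNA libraries. FastQC, featureCounts and danRer10 are named in the submitters' processing notes. Versions, aligner and gene annotation: not given in the sources used here. CPM by gene symbol were deposited by the authors. Every library's column had the same sum over 14781 genes, and 3 lines without a gene were left out. All values (100%) were whole multiples of 1 read within 0.1 read, which gave the reads per library. Reads are not molecules, and replicate spread, not counting, sets the errors given.

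To scale libraries, CPM was divided by a median-ratio factor (0.881 to 1.18, 11000 genes). Of 13956 genes above 0, the 10914 that reached a CPM of 1 in 2 libraries or more were tested. A limma-trend model (R 4.3.3, limma 3.58.1) was fitted to log2(scaled CPM + 1) on 10 group means, with 10 residual degrees of freedom (16.2 with the prior) and 17 contrasts. Tests were two-sided, Benjamini-Hochberg adjusted over genes, at 0.05. With 2 libraries per group, exact permutation cannot reach that threshold. edgeR 4.0.16 (quasi-likelihood test) on recovered reads was an alternative. A pair of libraries counted as near-identical when chi-square averaged under 10 per gene (genes of 20 or more reads). Figures used matplotlib 3.10.9.

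The members and lists were chosen with earlier results of these data known. The text names the members, kita and kitb, up to 4 list genes by adjusted p in a contrast described, and the 5 genes most like each member (mean of 5 scaled CPM or more; 1 of these for grnb is not reported here), and says where a gene was picked after its values were seen. mpx, lyz, npsn and mpeg1.1 were added as markers, and srgn, ncf1, ccr9a, anxa2a and fn1b for their weight in list sums. For the 14 dpi samples 1 label field gives another day, and the day in the titles was taken.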

Additional observations from a re-analysis of the deposited data

Results flagged for a closer look

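The change from untouched differed between the genotypes by the interaction term of the limma fit in 5 results. These terms contain the untouched levels of both genotypes, which were far apart. For grn2 the response of mutants minus that of wild type was log2 -3.53 at 2 dpi (adjusted p = 0.0117), -4.81 at 7 dpi (adjusted p = 0.00382) and -6.63 at 14 dpi (adjusted p = 0.000142). For grna it was -2.99 at 7 dpi (adjusted p = 0.000207) and -3.11 at 14 dpi (adjusted p = 5.78e-05). The grna values kept their calls with the near-identical pairs averaged, as did grn2 at 14 dpi. The grn2 calls at 2 and 7 dpi were lost. Of the 5 results, only grn2 at 14 dpi also passed between the genotypes at the same stage (limma, adjusted p = 0.00957). The grn2 and grna p-values are not free of the choice of the family. At 2, 7 and 14 dpi 40.9%, 18.8% and 33.2% of all tested genes were called for this term. Neutrophil genes moved with the response differences, 9, 12 and 12 of 12 below 0 at 2, 7 and 14 dpi, and their part was not tested.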

How the results depend on the processing

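Each library was left out in turn, and the fit was repeated with the near-identical pairs averaged, edgeR, TMM factors, quantile normalization, CPM as deposited, each genotype alone, a replicate block, a smaller pseudocount (0.25), a stricter filter (CPM 5) and no filter. Each tested granulin difference was counted at every setting that keeps all libraries and covers it. In these counts 468 were unchanged, 23 lost a call and 2 gained a call, and none reversed. The 468 include differences that did not pass in either fit, so they are not a count of calls kept. Fits with a library left out are not in these counts and are described below. CPM as deposited shifted the median of all genes by up to 0.30 on the log2 scale (mutant 2 dpi against untouched), and differences are read against that. The counts of genes called with the pairs averaged fell most in proportion at 7 dpi, to 292 of 1591 in mutants and 419 of 2047 for the response difference, and edgeR called 1567 to 6423 genes per contrast.

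No common pairing of samples by replicate number was seen, though weak correlations cannot exclude a pairing in some groups. Over 45 pairs of groups the correlation of same-numbered deviations ran from -0.293 to 0.143 (median -0.00829) and only 3 were over 0.1. The replicate block ended 1 call, the grn1 fall in mutants at 5 dpi (log2 -1.62, adjusted p = 0.0523). That fall was also lost on CPM as deposited (-1.61), with quantile normalization (-1.45), with no filter (-1.62), with the pairs averaged (-1.62) and by edgeR (-1.28). With no filter, calls were also lost for grn2 in wild type at 7 dpi (2.26), in mutants at 5 dpi (-1.93) and 7 dpi (-2.55) and between genotypes at 5 dpi (-2.09), and for grna in mutants at 2 dpi (0.77). With the pairs averaged the same differences were 2.26, -1.93, -2.55, -2.09 and 0.77, all lost, as were grnb between genotypes at 5 dpi (0.42) and the grn2 response differences at 2 dpi (-3.53) and 7 dpi (-4.81). By edgeR the grn2 fall at 5 dpi was lost (-1.70), and with wild type fitted alone so was its rise at 7 dpi (2.26). grnb between genotypes at 5 dpi was lost on CPM as deposited (0.23), and grna in mutants at 2 dpi with TMM factors (0.75). With mutants fitted alone, falls at 7 dpi passed for grn1 (-1.60, adjusted p = 0.0459) and grna (-0.60, adjusted p = 0.0206).

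Of the untested values, grn2 in wild type at 5 dpi was 6.26 by edgeR, and its response difference was -7.23 with a pseudocount of 0.25 and -7.96 by edgeR. grna in wild type at 5 dpi was 2.19 on CPM as deposited, 2.07 with quantile normalization and 2.05 by edgeR. The grnb response difference at 5 dpi, 0.15, was -0.035 on CPM as deposited and -0.11 without wild-type untouched replicate 2.

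Leaving out 1 library changed a call, or moved an untested value beyond the replicate spread, in the results with these ranges. In mutants against untouched they were -2.67 to -0.58 for grn1 at 5 dpi, -2.97 to -0.90 and -2.63 to -2.46 for grn2 at 5 and 7 dpi, and 0.72 to 0.81 for grna at 2 dpi. In wild type against untouched they were 1.75 to 2.92, 1.60 to 2.93 and 2.28 to 3.85 for grn2 at 2, 7 and 14 dpi, 0.36 to 1.79 for grna at 2 dpi and 0.31 to 0.83 for grnb at 7 dpi. Between genotypes they were -3.17 to -2.24 for grn1 at 14 dpi, -3.38 to -0.80 and -3.50 to -1.94 for grn2 at 5 and 14 dpi, and 0.015 to 0.54 and 0.31 to 0.54 for grnb untouched and at 5 dpi. For response differences they were -5.07 to -3.75, -6.79 to -4.70 and -6.12 to -3.97 for grn1 at 2, 5 and 7 dpi, and -7.29 to -4.72 for grn2 at 5 dpi. They were -1.02 to 0.41 and -4.45 to -3.84 for grna at 2 and 5 dpi, and -0.53 to -0.010, -0.11 to 0.41 and -0.65 to -0.13 for grnb at 2, 5 and 7 dpi. Among differences that passed in no such fit, the sign turned for grn1 between genotypes at 2 dpi (-0.39 to 0.93) and 7 dpi (-1.45 to 0.70), grn2 and grnb between genotypes at 2 dpi (-0.20 to 0.96 and -0.038 to 0.048), grnb in wild type at 14 dpi (-0.11 to 0.41) and the grnb response at 14 dpi (-0.30 to 0.23). A group left with 1 library was assumed to vary like the others. The causes of these changes were not tested.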
